A study of Mus musculus with 12 samples.

Results

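The ubiquitin-specific protease genes were taken as all genes whose symbol in the array's probe annotation begins with Usp followed by a number. The rule found 46 genes, carried by 80 of 38784 probes, among 16969 genes with a symbol, and 43 of them were among the 14523 genes measured on at least 2 arrays of every group and tested. The other 3, Usp13, Usp17lb and Usp43, had a value on 1, 2 and 4 arrays. By the number of probes, 24 genes had 1 probe and 22 had more. Mouse 3T3 cells, an established fibroblast line, were left as controls or treated with 10 nM, 100 nM or 1 µM Shld1, and each of the 4 groups had 3 arrays. Shld1 is a synthetic ligand that stabilises proteins fused to an engineered destabilizing domain of FKBP12, and the series title asks what it does to 3T3 cells. Whether the cells carried such a fusion, how long they were treated and what the control cells received is not stated in the labels. Every array compared the RNA of one sample, labelled with Cy5, with a Stratagene mouse reference RNA, labelled with Cy3. That reference is a pool of RNA from mouse cell lines. Nothing in the labels says that the replicates came from separate cultures, so each p-value measures the spread between these arrays, which may be technical.

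Ubiquitin is a small protein that cells attach to other proteins to mark them for degradation by the proteasome, for sorting in endosomes or for signalling. Ubiquitin-specific proteases, the largest family of deubiquitinases, cut ubiquitin off again with a catalytic cysteine, and each member is steered to its targets by its own binding domains and partners. Fibroblasts use several of them in TGF-beta signalling, receptor recycling, DNA repair and histone deubiquitination. A transcript level says nothing about the activity of the protease.

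All values are log2 ratios of cells over reference, centred on the median of each array, so that 0 is the ratio of the median probe. The base of the logarithm was taken as 2 and the direction from the dyes. An array gave values for 30649 to 33615 probes, and for 72 to 78 of the 80 probes of this family. Most fibroblast markers fit the label of the cells: 10 of 11 were called above the reference in limma (adjusted p at or under 0.05), against 38.6% of all genes. The exception was the collagen gene Col3a1 at -0.11 (SE 0.06, adjusted p = 0.15 in limma). Of 6 leukocyte markers, 5 were called below the reference, against 34.4% of all genes. These 2 marker groups also fit the direction, and they are not independent evidence of it. Being above the reference was not particular to fibroblast genes. Averages of the 3 of 7 listed germ cell markers measured on all arrays ran from 0.08 to 0.71, and the epithelial gene Epcam from -0.01 to 1.05. These 3 germ cell markers differed: Ddx4 ran from 0.67 to 1.365, Prm2 from -0.06 to 0.66 and Dazl from -0.80 to 0.46. Averages of 4 epithelial markers, Epcam among them, ran from -2.01 to -0.87. Ratios are not abundances, so they rank genes by their contrast with the reference and not by transcript level. Each probe was measured in 1 dye orientation, so a dye effect of a probe and a difference between cells and reference cannot be told apart. Likewise, in RNA from whole cultures, fewer cells of a type and less RNA per cell cannot be told apart.

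The genes of this family whose ratio lay beyond 2-fold in either direction were Usp19, Usp36, Usp30, Usp25, Usp18 and Usp17la. Their promoters are shown because the members with the most extreme ratios have start regions of very different base composition. RefSeq's promoter table for the mouse assembly GRCm38.p6 holds a window for 34 of the 46 genes, and none was found for Usp18. Each line gives the 250 bases before the annotated start of the gene, 5′ to 3′ on the gene's own strand, with CpG dinucleotides in capitals. The window of Usp19 is chr9:108490426-108490675 on the + strand, that of Usp36 is chr11:118290245-118290494 on the - strand and that of Usp30 is chr5:114100083-114100332 on the + strand. The window of Usp25 is chr16:77013819-77014068 on the + strand and that of Usp17la is chr7:104856766-104857015 on the + strand.
Usp19: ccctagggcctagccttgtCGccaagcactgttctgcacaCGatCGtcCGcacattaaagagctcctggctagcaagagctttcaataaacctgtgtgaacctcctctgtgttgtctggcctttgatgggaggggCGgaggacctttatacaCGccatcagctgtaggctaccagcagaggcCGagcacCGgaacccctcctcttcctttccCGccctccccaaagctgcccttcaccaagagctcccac
Usp36: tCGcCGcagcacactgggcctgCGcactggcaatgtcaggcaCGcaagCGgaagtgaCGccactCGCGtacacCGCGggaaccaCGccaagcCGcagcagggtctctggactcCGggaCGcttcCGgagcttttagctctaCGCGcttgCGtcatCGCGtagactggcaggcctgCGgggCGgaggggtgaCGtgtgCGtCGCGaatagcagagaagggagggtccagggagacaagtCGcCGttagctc
Usp30: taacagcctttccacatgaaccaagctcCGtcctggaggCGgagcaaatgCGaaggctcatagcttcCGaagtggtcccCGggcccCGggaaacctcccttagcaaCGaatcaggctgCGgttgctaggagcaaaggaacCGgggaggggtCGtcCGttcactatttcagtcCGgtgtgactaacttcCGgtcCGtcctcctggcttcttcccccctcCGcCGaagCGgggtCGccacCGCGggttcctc
Usp25: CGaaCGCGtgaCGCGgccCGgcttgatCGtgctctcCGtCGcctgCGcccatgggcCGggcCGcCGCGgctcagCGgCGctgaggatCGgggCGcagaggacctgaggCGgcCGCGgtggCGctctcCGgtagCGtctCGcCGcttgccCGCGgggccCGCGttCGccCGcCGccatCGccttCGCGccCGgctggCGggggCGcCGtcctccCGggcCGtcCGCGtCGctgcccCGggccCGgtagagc
Usp17la: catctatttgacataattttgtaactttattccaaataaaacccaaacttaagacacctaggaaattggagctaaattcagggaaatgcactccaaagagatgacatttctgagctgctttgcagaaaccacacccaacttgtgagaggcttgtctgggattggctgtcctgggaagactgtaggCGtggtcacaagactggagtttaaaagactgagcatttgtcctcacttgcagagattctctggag
The window of Usp25 holds 47 CpG dinucleotides and 80.0% G and C, while that of Usp17la holds 1 CpG and 42.4% G and C. The windows of Usp36, Usp30 and Usp19 lie between them with 28, 20 and 9 CpG dinucleotides. Low ratios to the reference were thus found for Usp25, with a CpG-rich start, and for Usp17la, with a CpG-poor start. The ratio of Usp17la came from 1 probe, and which of the near-identical copies that probe reports is uncertain. The copy Usp17lc, also with 1 CpG in its window, was at 0.20.

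Across the 35 windows of the family, the median was 18 CpG dinucleotides and 62.8% G and C, against 6 and 52.4% over all 32851 windows of the same length. All windows here include those of genes not measured on the arrays, and the measured genes were not compared apart. The GC box GGGCGG, on either strand, was found in 60% of the family's windows and 32.7% of all windows. CCAAT was found in 31.4% and 33.8%, TATAAA in 11.4% and 12.4%, CACGTG in 11.4% and 6.02%, and TGACGTCA in 0% and 1.55%. GGGCGG itself consists of G and C, so its share and the base composition cannot be told apart, and no match says only that these letters are not in the window. Over the 32 tested members with a window, the CpG count and the ratio to the reference had a Spearman rho of 0.194, given as a description. The Usp17la, Usp17lb and Usp17lc windows each hold 1 CpG, the lowest count in the family, and the highest was 55, in the window of Usp7.

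Compared with the reference RNA, 28 of the 43 tested genes differed in 3T3 cells, 19 of them higher and 9 lower (limma, Benjamini-Hochberg adjustment over all genes, threshold 0.05, all 12 arrays). That is 65.1% of the family, against 73% of all genes tested, so a difference from the reference was no more common here than in the transcriptome. The calls were 44.2% higher and 20.9% lower in the family, against 38.6% and 34.4% of all genes. The median ratio was 0.14 over the family and 0.03 over all genes, and the median size of the ratio was 0.30 and 0.38. On single arrays, 12 members were above 0 on all 12 arrays, 6 were below 0 wherever they were measured, and 25 fell on both sides.

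**Figure D1:**
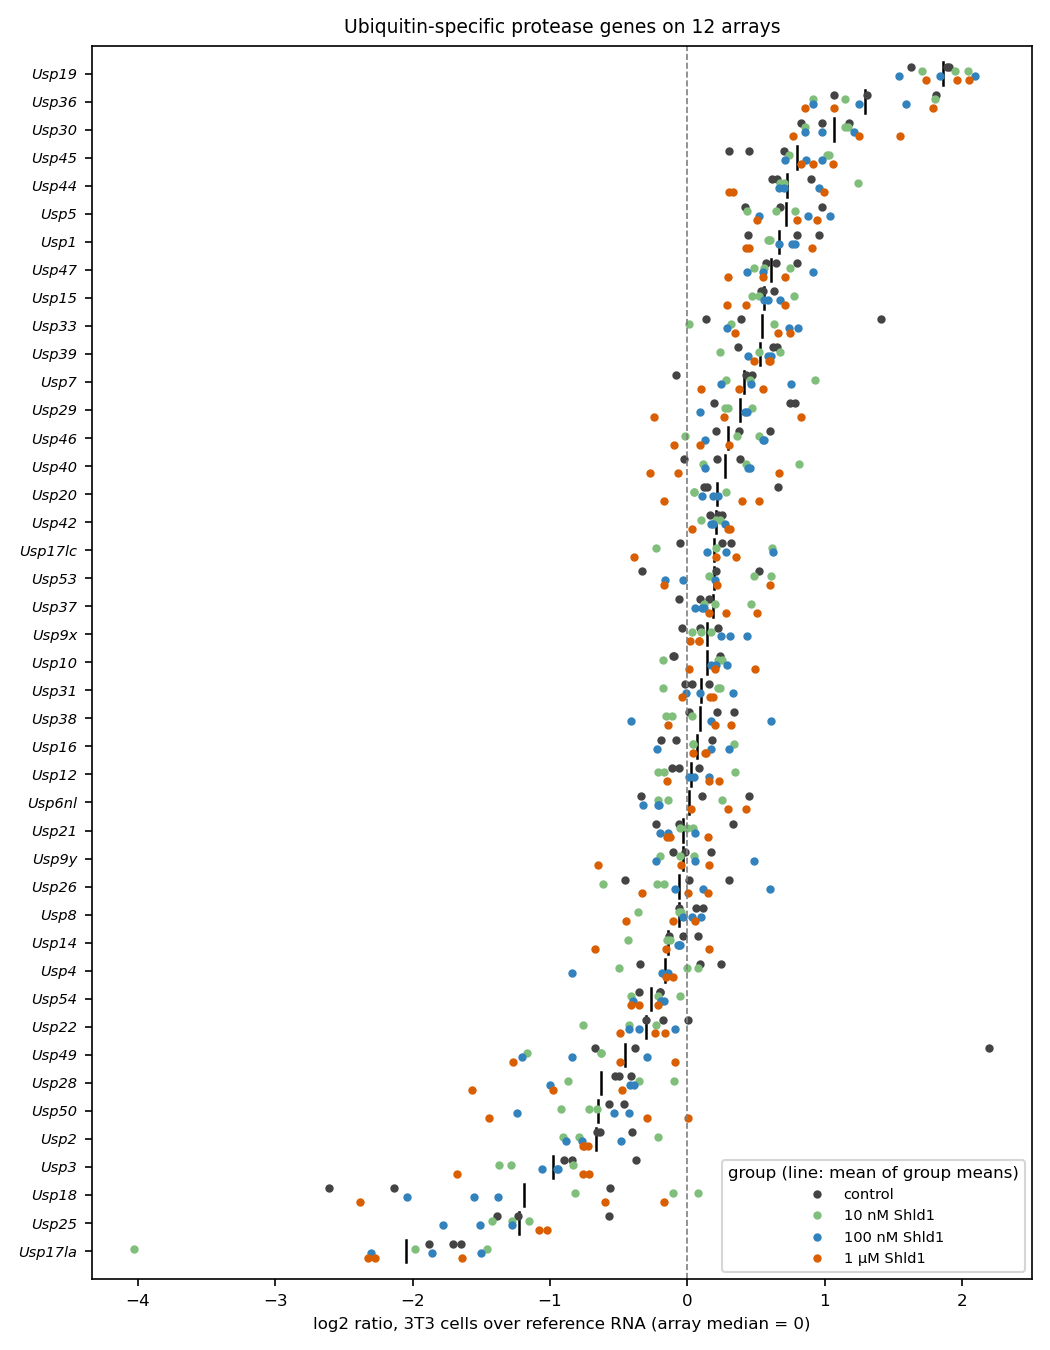
Log2 ratio of 3T3 cells over reference RNA (x axis, array median at 0) for each of the 43 tested Usp genes (rows), with 1 point per array coloured by group and a black line at the mean of the 4 group means. Usp45 is the only row whose 9 treated points all lie above its 3 control points, a pattern that was not counted over all genes. No row has them all below, and the rows run from Usp19 at 1.86 to Usp17la at -2.05.

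Among the proteases of membranes and organelles, 4 of 5 tested members were above the reference (38.6% of all genes). Usp19, whose best known form is anchored in the endoplasmic reticulum and acts in the degradation of proteins from that compartment, had the highest ratio of the family, with 1.54 on the lowest array, a median of 1.90 and 2.09 on the highest. Its mean was 1.86 (SE 0.06, adjusted p = 7.002e-10 in limma), or 3.63-fold over the reference. No array came near 0, and 99.3% of all genes tested had a ratio at or below that of Usp19. Usp30, which sits on the outer mitochondrial membrane and opposes the removal of mitochondria by mitophagy, ranged over 0.77, 1.06 and 1.55 (lowest, median and highest array), with a mean of 1.06 (SE 0.07, adjusted p = 1.057e-07). Usp33 and Usp20, a related pair that binds the von Hippel-Lindau protein and helps recycle adrenergic receptors, were at 0.54 (SE 0.11, adjusted p = 6.473e-04) and 0.22 (SE 0.07, adjusted p = 0.0178). Usp33 was uneven, with 1.41 on control replicate 1 and 0.01 to 0.81 on the other arrays, and its other probe averaged -1.06 on the 3 arrays that measured it. Usp8, which acts on receptors at the endosome, was at -0.06 (SE 0.06) and did not pass.

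The members that work with RNA or in the nucleolus all had positive ratios, and 3 of 4 passed. Of all genes 73% passed, and 38.6% passed as higher. Usp36, a nucleolar enzyme that protects ribosome-making factors and Myc, had 0.86, 1.201 and 1.81 on its lowest, median and highest array, with a mean of 1.29 (SE 0.11, adjusted p = 6.254e-07 in limma). Its values on arrays numbered 1 were 1.81 for control, 1.80 at 10 nM, 1.59 at 100 nM and 1.79 at 1 µM, against 0.86 to 1.31 on the other 8 arrays, so the 4 highest arrays of Usp36 shared a replicate number and not a dose. What that number stands for is not stated in the labels. Usp39, a splicing factor of the spliceosome that has the fold of the family without its activity, was at 0.53 (SE 0.05, adjusted p = 2.645e-06), and Usp42 at 0.21 (SE 0.05, adjusted p = 0.00153). Usp10, which binds the stress granule protein G3BP1, was at 0.14 (SE 0.06, adjusted p = 0.0559). G3bp1 itself was above the reference at 0.75 (SE 0.05, adjusted p = 1.03e-07).

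Proteases of chromatin, DNA repair and the p53 pathway were split, with 4 of 10 tested members higher (38.6% of all genes), 3 lower (34.4% of all genes) and 3 that did not pass. Higher were Usp44, which acts on the mitotic spindle checkpoint, at 0.73 (SE 0.08), Usp1, which removes ubiquitin from PCNA and FANCD2, at 0.67 (SE 0.06), Usp47, a base excision repair regulator, at 0.61 (SE 0.06), and Usp7, the deubiquitinase of MDM2 and p53, at 0.41 (SE 0.08). Their adjusted p ran from 1.31e-06 to 5.209e-04 in limma. Usp7 was at -0.08 on control replicate 1 and between 0.10 and 0.93 on the other 11 arrays. Lower were Usp3, an H2A deubiquitinase, at -0.97 (SE 0.09, adjusted p = 1.501e-06), Usp28, a checkpoint enzyme, at -0.63 (SE 0.10, adjusted p = 1.135e-04), and Usp22, the deubiquitinase of the SAGA complex, at -0.30 (SE 0.06, adjusted p = 8.448e-04). Usp3 stayed below 0 on every array, between -1.68 and -0.37. Usp16 and Usp21, both H2A deubiquitinases, were close to the median probe at 0.07 (SE 0.06) and -0.03 (SE 0.06). Usp49, an H2B deubiquitinase, was at -0.46 (SE 0.22, adjusted p = 0.0765), and at -0.68 (adjusted p = 3.54e-04) without control replicate 2. Over all settings tried it ran from -0.68 to -0.11, with an adjusted p of up to 0.578 in limma. Its value came from 1 of 2 probes, the only one measured on all arrays.

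The members of cytokine and growth factor signalling also went both ways, and 3 of the 7 tested were lower (34.4% of all genes). Usp25, an enzyme of interleukin-17 and toll-like receptor signalling, had -1.78, -1.27 and -0.57 on its lowest, median and highest array over the 11 that measured it, with a mean of -1.23 (SE 0.08, adjusted p = 2.208e-07 in limma). Usp18, which removes the ubiquitin-like protein ISG15 and dampens the interferon receptor, was at -1.19 (SE 0.21, adjusted p = 2.557e-04), and Usp2, whose transcript cycles with the circadian clock, at -0.66 (SE 0.07, adjusted p = 2.908e-06). Usp18 was far less even than the others, with -2.61 on its lowest array and 0.08 on its highest. Higher were Usp15, which acts on TGF-beta receptor complexes, at 0.56 (SE 0.05, adjusted p = 1.48e-06), and Usp9x, which deubiquitinates SMAD4, at 0.15 (SE 0.05, adjusted p = 0.0117). The call of Usp9x depended on the centring, and without it the ratio was -0.0035 (adjusted p = 0.95). Usp4, another TGF-beta receptor enzyme, was at -0.17 (SE 0.09) and Usp31 at 0.10 (SE 0.06), and neither passed.

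Usp5, which takes free ubiquitin chains apart, was above the reference at 0.72 (SE 0.07, adjusted p = 2.144e-06 in limma), with 0.42 on its lowest and 1.04 on its highest array. Usp14, the protease bound to the proteasome, was at -0.14 (SE 0.07, adjusted p = 0.0885) and did not pass, but passed without 1 µM replicate 2 (-0.19, adjusted p = 0.0196). Of the enzymes switched on by WD-repeat proteins, Usp46 was at 0.30 (SE 0.07, adjusted p = 0.0019) and Usp12 at 0.03 (SE 0.06), while their shared partner Wdr48 was at 0.19 (SE 0.12, adjusted p = 0.153). Usp37, a cyclin A deubiquitinase, was at 0.18 (SE 0.05, adjusted p = 0.00709), and Usp38 was at 0.09 (SE 0.08). Usp45, which acts on the DNA repair nuclease subunit ERCC1, was at 0.80 (SE 0.06, adjusted p = 1.243e-07), and at 0.32 (adjusted p = 0.00297) with the mean of all its probes. The little studied Usp40 was at 0.27 (SE 0.09, adjusted p = 0.0158). These genes thus ranged from near the median probe to 1.74-fold above the reference for Usp45.

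Of the 4 genes of the family known from the germ line or the sex chromosomes, 1 was above the reference (38.6% of all genes), 1 was below it (34.4% of all genes) and 2 did not pass. Usp29, an imprinted gene, was at 0.38 (SE 0.09, adjusted p = 0.00226 in limma), and Usp50 was below the reference at -0.65 (SE 0.13, adjusted p = 8.169e-04). The X-linked Usp26 was at -0.06 (SE 0.09) and the Y-linked Usp9y at -0.03 (SE 0.08), and neither passed. Usp9y and Usp9x are close copies, so their probes may share signal. Usp53 and Usp54, long regarded as members without activity, were at 0.19 (SE 0.09, adjusted p = 0.0665) and -0.26 (SE 0.05, adjusted p = 5.326e-04). Usp6nl, which the symbol rule includes although it encodes a GTPase-activating protein and no protease, was at 0.01 (SE 0.07).

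The lowest ratio of the family belonged to Usp17la, one of a cluster of near-identical genes first found as cytokine-induced deubiquitinases of mouse blood cells. It had -4.03 on its lowest array, a median of -1.87 and -1.46 on its highest, with a mean of -2.05 (SE 0.18, adjusted p = 9.248e-07 in limma). The lowest value came from 10 nM replicate 1, and the other 11 arrays lay between -2.33 and -1.46. Its other probe, with a value on 8 arrays, averaged 0.12, and the neighbouring copy Usp17lc was at 0.20 (SE 0.09, adjusted p = 0.0657). Since these genes differ at few positions, which copy each probe reports is uncertain. Only 0.847% of all genes tested had a ratio at or below that of Usp17la.

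In the control cells alone, with 3 arrays, 18 of the 43 members passed (41.9%, against 46.1% of all genes), 13 higher (26.5% of all genes) and 5 lower (19.6% of all genes). Usp19, Usp36 and Usp30 were again the highest, at 1.81 (SE 0.12), 1.40 (SE 0.22) and 0.995 (SE 0.14). Usp18, Usp17la and Usp25 were the lowest, at -1.77 (SE 0.41), -1.74 (SE 0.36) and -1.06 (SE 0.16). Their adjusted p ran up to 0.00467 in limma. The calls of Usp33, at 0.65, and Usp3, at -0.70, were lost without control replicate 1 (0.26 with an adjusted p of 0.278, and -0.61 with 0.0586), and that of Usp3 also without control replicate 2 (-0.63 with 0.0532). The call of Usp33 in control cells was also lost without centring (0.49, adjusted p = 0.0694), with the mean of all its probes (0.18, adjusted p = 0.533), with array weights (0.49, adjusted p = 0.0654) and with the control arrays alone in the fit (0.65, adjusted p = 0.11).

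Several genes of the family were represented by probes that disagreed strongly. Of the 17 members with more than 1 probe measured on all 12 arrays, 7 had probes whose mean ratios lay more than 1 apart (41.2%), against 25% of the 3855 such genes on the array, while the median range was 0.54 in the family and 0.57 over all such genes. Usp15 had the widest range: its 3 complete probes averaged -0.67, 0.28 and 2.07, a 6.67-fold gap, and each differed from the reference (adjusted p of 5.775e-05, 5.745e-04 and 9.45e-10 in limma, each probe alone). The lowest probe stayed between -1.18 and -0.14 on the 12 arrays and the highest between 1.56 and 2.44, so the gap was a property of the probes and not of some arrays. The mean of 0.56 given above for Usp15 therefore describes none of its probes.

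Opposite calls from probes of a gene were found in 4 members, which were Usp1, Usp15, Usp37 and Usp9x (23.5% of the 17, against 25.1% of the 3855 such genes on the array). Usp1 had complete probes at -0.41 and 1.74, each with an adjusted p of at most 3.471e-05 in limma, and a probe on 11 arrays at 0.17. Usp37 had probes at -0.26, -0.22 and 1.02, and Usp9x at -0.15, 0.20 and 0.39. Usp47 ranged from -0.18 through 0.31 to 1.69, and Usp28 had -1.36 and 0.10. The sign of the ratio to the reference thus depended on the probe for Usp1, Usp15, Usp37 and Usp9x. For Usp47 and Usp28 the probe of the other sign, at -0.18 and 0.10, did not pass. Usp2 had -1.28 and -0.05, so its complete probes differed in size and not in sign. Usp12, with complete probes at -0.16, -0.04 and 0.28, and Usp8, with -0.38, 0.09 and 0.10, spread less. The probes of Usp39, at 0.43, 0.54 and 0.62, and of Usp46, at 0.28 and 0.32, gave the same sign and size. Both probes of Usp19 were high, at 1.28 and 2.44. Which transcript forms the probes cover was not analysed here.

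**Figure D2:**
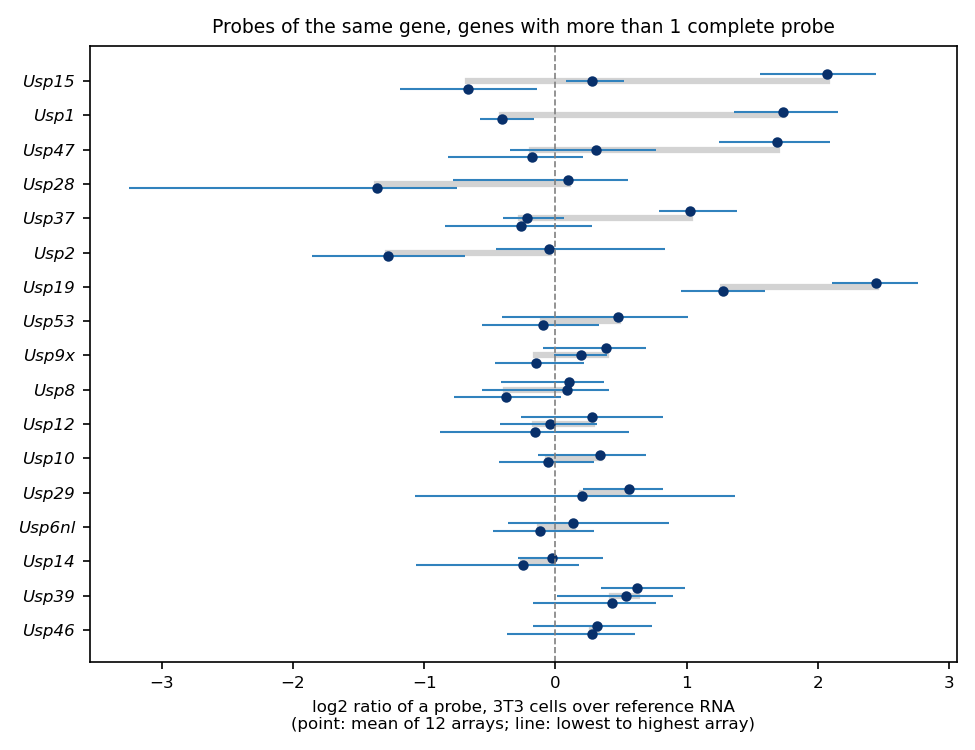
Mean log2 ratio of cells over reference (x axis) for each probe of the 17 Usp genes with more than 1 probe measured on all 12 arrays, with a thin line from the lowest to the highest array and a grey bar over the range of the probes. The genes run from Usp15, with probes from -0.67 to 2.07, at the top to Usp46, with probes 0.04 apart, at the bottom.

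No gene of the family passed the test at any dose of Shld1. At 1 µM, 0 of 43 members passed (0% of all genes), 15 were above control (47% of all genes) and 28 below, and the median change was -0.06, against -0.02 over all genes. The smallest adjusted p of a member was 0.9986 in limma, and 1 member (2.33%) had an unadjusted p under 0.05, against 4.26% of all genes. At 100 nM, 0 passed (0% of all genes), 20 were above (53.9% of all genes), 22 were below and 1, Usp54, was equal to control, and 1 had an unadjusted p under 0.05 (3.02% of all genes). At 10 nM, 0 passed (0% of all genes), 18 were above (48.4% of all genes) and 25 below, with a median of -0.07, and 2 had an unadjusted p under 0.05 (2.48% of all genes). Shares of the family with a small p were thus close to those of all genes. The 3 doses were compared with the same control arrays, so an unusual control array enters all 3 comparisons.

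The intervals were narrow enough to bound most changes. At 1 µM, 39 members (90.7%) had a 95% interval inside the range from -1 to 1 on the log2 scale, as did 83% of all genes. The corresponding numbers were 39 at 100 nM (84.8% of all genes) and 38 at 10 nM (84.8% of all genes). The members with wider intervals at 10 nM and at 1 µM included Usp18, Usp49 and Usp17la. The SD within groups had a median of 0.25 over the family, which lies at the 44.5th percentile of all genes, and only Usp17la, Usp18 and Usp49 stood at or above the 95th percentile. Usp9x and Usp42 were the most even, with an SD of 0.09 each.

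**Figure D3:**
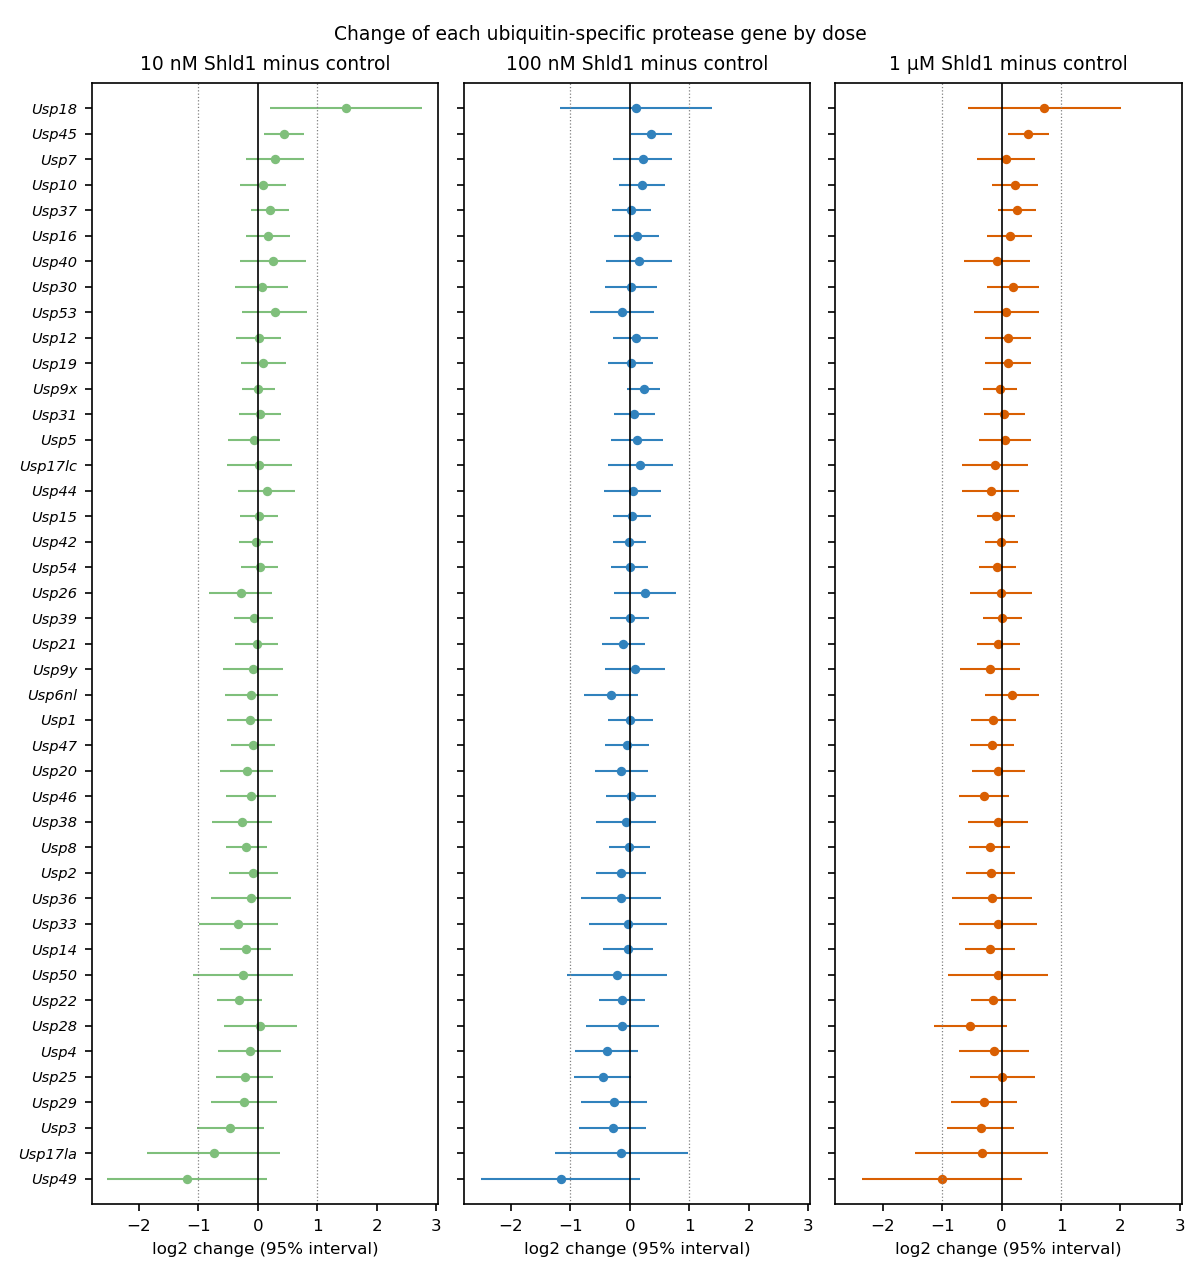
Log2 change against control (x axis) of each tested Usp gene (rows) at 10 nM, 100 nM and 1 µM Shld1 (panels), with the 95% interval from limma as a line and dotted lines at -1 and 1. Most intervals cross 0 and stay inside the dotted lines, while Usp45 lies to the right of 0 in each panel and Usp18, Usp17la and Usp49 have the widest intervals.

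Usp45 was the member with the smallest unadjusted p at 1 µM. Its log2 ratios were 0.306, 0.449 and 0.705 in control cells, 0.740, 1.029 and 1.015 at 10 nM, 0.983, 0.709 and 0.866 at 100 nM, and 1.062, 0.916 and 0.828 at 1 µM. All 9 treated arrays lay above all 3 control arrays, with the lowest treated array at 0.709 next to the highest control at 0.705. How many of all genes show this over the 9 arrays was not counted. At single doses, 3.11% of all genes at 10 nM, 4.07% at 100 nM and 3.36% at 1 µM were higher without overlap. The changes of Usp45 were 0.44 at 10 nM (SE 0.16), 0.37 at 100 nM (SE 0.16) and 0.45 at 1 µM (SE 0.16), which is 1.36-, 1.29- and 1.37-fold, and they did not increase with the dose. At 1 µM the unadjusted p was 0.0143 and the adjusted p 0.9986 in limma; for the mean of the 3 doses the change was 0.42 (SE 0.13), with an unadjusted p of 0.00674 and an adjusted p of 0.9999. These values come from the probe measured on all arrays. With the mean of both probes the change was 0.20 at 10 nM and 0.69 at 1 µM. The other probe had a value on 3 control arrays but on only 1 array at 1 µM, so its missing values enter these means. The other probe of Usp45, measured on 9 arrays, had -0.25, -0.81 and -0.43 in control cells, -1.10, -0.36 and -0.17 at 10 nM, -0.56 and -0.31 at 100 nM and -0.41 at 1 µM. On that probe the groups overlapped, and the gene was below the reference.

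Usp18 had the largest change of the family at 10 nM. Its log2 ratios were -2.61, -2.14 and -0.57 in control cells, -0.10, -0.82 and 0.08 at 10 nM, -2.04, -1.55 and -1.38 at 100 nM, and -2.38, -0.17 and -0.60 at 1 µM. The groups overlapped, since control replicate 3 was above 10 nM replicate 2. The change was 1.49 at 10 nM (SE 0.58, 95% interval 0.21 to 2.77, unadjusted p = 0.0261, adjusted p = 0.9996 in limma), 0.72 at 1 µM (SE 0.58) and not ordered by dose. Leaving out 1 array moved the value at 1 µM between 0.28, without 1 µM replicate 2, and 1.39, without 1 µM replicate 1. Usp18 is an interferon-induced gene, and 7 other interferon genes, averaged per array, ranged from 0.00 to 0.07 at 10 nM and from -0.22 to 0.19 in control cells. None of them passed at 10 nM, but neither did any other gene (0% of all genes), so this does not set them apart. The averages at 10 nM fell inside the range of the controls. They mix genes of either direction: by group means, Stat2 was at -1.10 in control cells and -0.67 at 10 nM, and Isg15 at -1.03 and -1.31. An interferon response was not tested. Of 6 leukocyte markers, 5 were above control at 10 nM (48.4% of all genes). The average of these 6 per array ranged from -0.99 to -0.79 at 10 nM and from -1.94 to -0.93 in control cells. Being above control at 10 nM was not particular to leukocyte markers, since 4 of 5 epithelial markers were above it too. Of the fibroblast markers 2 of 11 were above control at 10 nM, and of the germ cell markers 1 of 4. The part of leukocyte-type transcripts in the value of Usp18 was not tested.

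**Figure D4:**
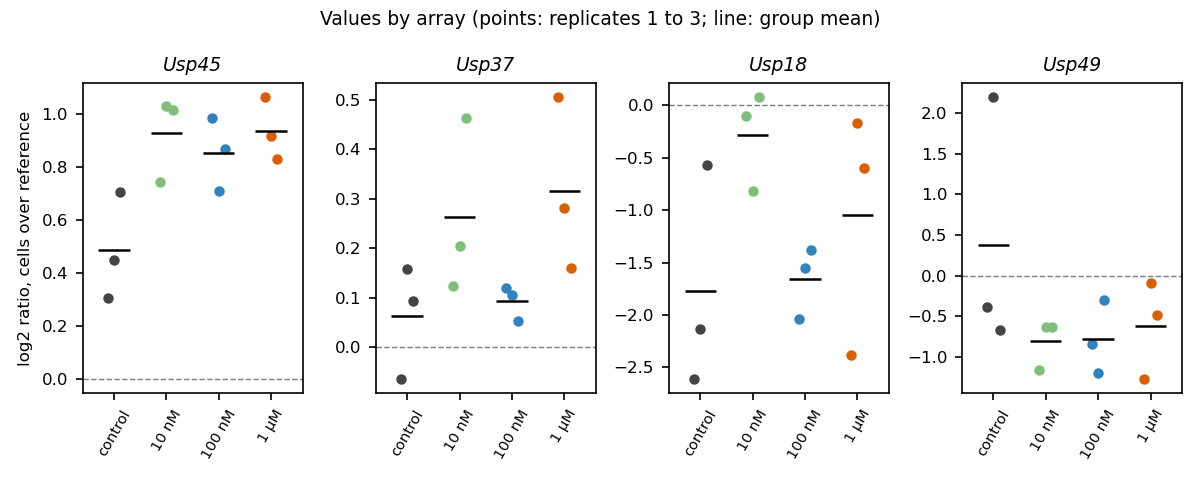
Log2 ratio of cells over reference (y axis, scaled per panel) for Usp45, Usp37, Usp18 and Usp49 by group (x axis), with 1 point per array and a line at the group mean. The 9 treated points of Usp45 lie above its 3 control points, the points of Usp18 spread widely within groups, and the control mean of Usp49 is raised by 1 point at 2.20.

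The lower values of Usp49 rested on a single spot. Its ratios were -0.38, 2.20 and -0.67 in control cells, -1.16, -0.63 and -0.63 at 10 nM, -0.84, -1.202 and -0.30 at 100 nM, and -1.27, -0.09 and -0.49 at 1 µM. Control replicate 2 was above every other array, while the other control arrays lay inside the range of the treated ones. The changes were -1.19 at 10 nM, -1.16 at 100 nM and -0.999 at 1 µM (SE 0.61 each, adjusted p of 0.9996, 0.9998 and 0.9986 in limma). Without that spot they were -0.28, -0.25 and -0.09, a setting chosen after the values were seen.

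Besides Usp45, few members had groups without overlap. At 1 µM these were Usp37, with 0.51, 0.28 and 0.16 at 1 µM against -0.06, 0.16 and 0.09 in control cells, and Usp2, with -0.75, -0.76 and -0.72 at 1 µM against -0.63, -0.66 and -0.40 in control cells. The change of Usp37 was 0.25 (SE 0.15) and that of Usp2 was -0.18 (SE 0.19), and neither passed (adjusted p = 0.9986 in limma for both). Together with Usp45, 2 of 40 members measured on all these arrays were higher without overlap (3.36% of all genes) and 1 was lower (4.21% of all genes). The 3 probes of Usp37 gave 0.54, 0.30 and -0.08 at 1 µM, so they differed in sign.

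At 100 nM, Usp9x had 0.31, 0.24 and 0.43, against -0.04, 0.22 and 0.09 in control cells, a change of 0.24 (SE 0.13, adjusted p = 0.9998 in limma) that was positive on each of its 3 probes. Usp3 had -1.06, -0.95 and -0.94 at 100 nM, against -0.90, -0.84 and -0.37 in control cells, a change of -0.28 (SE 0.26). With Usp45, these made 2 of 42 members higher without overlap (4.07% of all genes) and 1 lower (3.26% of all genes). At 10 nM, only Usp45 of 42 members was higher (3.11% of all genes) and 0 were lower (3.28% of all genes). The shares of the family thus stayed near those of all genes. The value of Usp9x was 0.01 at 10 nM and -0.03 at 1 µM.

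Other members named by the smallest unadjusted p did not pass either. At 1 µM, Usp28 was lower by value at -0.53 (SE 0.28), with -1.57, -0.98 and -0.48 on the treated arrays against -0.53, -0.41 and -0.50 in control cells. Usp28 was at -0.25 without 1 µM replicate 1. Usp3 was at -0.35 (SE 0.26), and at -0.034 without 1 µM replicate 1. Usp46 was at -0.30 (SE 0.19) and Usp10 at 0.22 (SE 0.18). Usp46 was below the control array of the same number on 3 of 3 arrays. At 100 nM, the values were -0.46 (SE 0.22) for Usp25, -0.39 (SE 0.24) for Usp4, -0.32 (SE 0.21) for Usp6nl, 0.25 (SE 0.24) for Usp26 and 0.21 (SE 0.18) for Usp10. At 10 nM they were -0.74 (SE 0.51) for Usp17la, -0.46 (SE 0.26) for Usp3, -0.31 (SE 0.17) for Usp22, 0.28 (SE 0.22) for Usp7 and 0.20 (SE 0.15) for Usp37. The value of Usp17la came from 10 nM replicate 1 and was 0.02 without it. Of the 8 members named in each comparison, 7 at 1 µM, 6 at 100 nM and 6 at 10 nM had a value that moved by over 1.5 times when 1 array was left out.

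By listed role, the median change at 1 µM ran from -0.15, over 10 genes of chromatin, DNA repair and p53, to 0.18, against -0.02 over all genes. The 0.18 covers only the 2 less known genes Usp40 and Usp45, with Usp45 at 0.45. Usp17la and Usp17lc, in no role list, did not enter these medians. Their group means at 1 µM were -2.08 and 0.06, against -1.74 and 0.17 in control cells. Of the 10 chromatin, repair and p53 genes, 2 were above control, against 47% of all genes, and none passed, while 3 of 4 members listed as without proteolytic activity or as no protease were above control. Averaged over the 3 doses, 16 members were above control (48.8% of all genes) and 27 below, 0 of 43 passed (0% of all genes) and 2 had an unadjusted p under 0.05, Usp45 and Usp49 (3% of all genes). A linear trend over dose rank gave 0 passing members (0% of all genes) and 1 with an unadjusted p under 0.05, Usp45 at 0.13 per dose step (SE 0.05, 3.56% of all genes). The group means of Usp45 were 0.49 in control cells, 0.93 at 10 nM, 0.85 at 100 nM and 0.94 at 1 µM. The slope thus does not describe a steady rise from dose to dose. An F test over the 4 groups gave 0 passing members (0% of all genes) and 1 with an unadjusted p under 0.05, again Usp45 (adjusted p = 0.9999 in limma), against 2.91% of all genes.

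Other deubiquitinase families were measured beside it, and their counts stand beside the 38.6% of all genes above the reference and the 34.4% below it. Of 12 OTU proteases tested, 1 was above and 6 were below the reference, with a median of -0.21 and with Otud6b at 1.71 (SE 0.16) and the NF-kB regulator Tnfaip3 at -1.16 (SE 0.17). Of 11 JAMM metalloproteases and related subunits, 5 were above and 3 below, led by the proteasome subunit Psmd7 at 1.01 (SE 0.09) and the COP9 signalosome subunits Cops5 at 0.67 (SE 0.05) and Cops6 at 0.64 (SE 0.05). Of 4 UCH proteases, 1 was above and 2 were below, among them the BRCA1-associated Bap1 at -0.53 (SE 0.07). Of 3 MJD proteases, 1 was above and 1 below, and of 7 SUMO and NEDD8 proteases, 1 was above and 4 below. Cyld, an NF-kB regulator with a related protease domain outside the symbol rule, was at 0.43 (SE 0.07, adjusted p = 8.6e-05 in limma). None of these genes passed at any dose (0% of all genes), and no test of the difference between families was made.

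**Figure D5:**
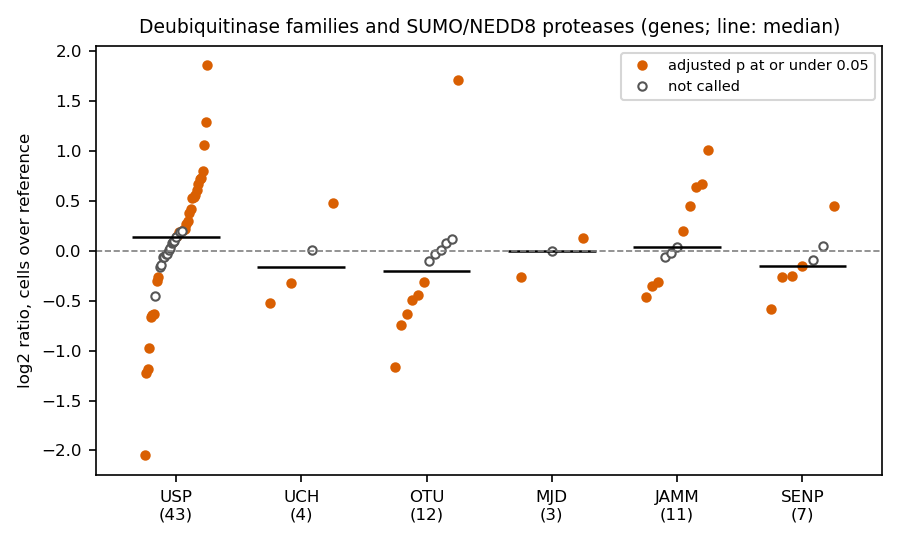
Log2 ratio of cells over reference RNA (y axis) of each tested gene of 5 deubiquitinase families and of the SUMO and NEDD8 proteases (x axis, number of genes in brackets), with filled points for an adjusted p at or under 0.05 and a line at the median. The medians are 0.14 for the 43 Usp genes and -0.21 for the 12 OTU genes, and the points of the families overlap.

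Partners and substrates of the family were looked at from lists of known names. Of 8 partner genes tested, 4 were above the reference (38.6% of all genes) and 0 below (34.4% of all genes): G3bp1 at the value given above, Gmps, the partner of Usp7, at 0.45 (SE 0.09), Stambp at 0.45 (SE 0.06) and Atxn7, a SAGA subunit, at 0.35 (SE 0.05). Of 10 substrate genes, 2 were above and 4 below. Pcna, whose protein is deubiquitinated by USP1, was at 2.03 (SE 0.08), and Hif1a at 1.47 (SE 0.09), whereas Egfr, a receptor handled by USP8, was at -1.45 (SE 0.10) and Mcl1, a survival protein handled by USP9X, at -1.08 (SE 0.13). Isg15, the modifier that Usp18 removes, was below the reference like Usp18, at -1.18 (SE 0.12, adjusted p = 3.1e-06 in limma), and Rsad2, another interferon gene, was above it at 1.41 (SE 0.05). None of the partners, substrates or interferon genes passed at any dose (0% of all genes).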

How the data were processed

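RNA of 3T3 cells in 4 groups of 3 arrays was hybridised against a common reference RNA, and the unit analysed was the deposited log2 ratio of each probe and array. Per the labels, cells carried Cy5 and the reference Cy3, with no dye swap and an Axon scanner. The log base and the direction of the deposited log2 values are not stated, and the sources used here do not give how they were normalized, background-corrected or filtered. Scanner intensities were not used here, so signal over background is unknown. Probes were named from the platform annotation (26173 with 1 symbol).

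The array median was subtracted from each array. Probes of a gene that were complete on all 12 arrays were averaged, and where no probe was complete, the one with most values was taken. Genes with values on at least 2 of 3 arrays in every group entered a limma fit (version 3.58.1, R 4.3.3; lmFit and eBayes, all 12 arrays, group as the term), checked on simulated data, with Benjamini-Hochberg adjustment over 14523 genes at 0.05. Group means within 1e-09 counted as equal. The number of arrays limits the precision. Named were members by role, the 4 higher and 4 lower members with the smallest p in each comparison, the 10 highest and 10 lowest against the reference, and listed genes that passed. Members and lists were chosen with earlier results of these data known. Alternatives changed the centring, scaling, filter, gene value, symbols, replicate block, variance model, samples in the fit and each array. Leaving out the Usp49 spot was chosen after seeing the data. Plots used matplotlib 3.10.9 (Python 3.11.15).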

Additional observations from a re-analysis of the deposited data

How the results depend on the processing

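Under 26 alternative settings, 12 of which left out an array, 0 members passed at any dose in limma, nor for the mean of the doses, the trend or the F test under the 25 that gave these. Without centring, which put the median of all genes at -0.12 against the reference in place of 0.03, called higher genes were 39.3% of all calls in place of 52.9%. The family then had 15 lower calls in place of 9 and a median of -0.008 in place of 0.14, and the control cells had a median of -0.0596 in place of 0.09. Usp9x then reversed to -0.0035, and to -0.0596 in control cells. With each probe alone, 22 genes had a probe called higher and 15 had one called lower, 4 of them both, in place of 19 and 9, and in control cells 15 and 8 in place of 13 and 5. The median of control cells was 0.15 with only genes measured on all 12 arrays and 0.147 with array weights, which also put the 1 µM median at -0.0904. With the mean of all probes, Usp45 reversed to -0.0048 in control cells, and its ratio over all arrays was 0.32. Without 1 array in turn, the family's median ran from -0.10 to -0.0182 at 1 µM, from -0.03 to 0.03 at 100 nM, from -0.07 to -0.0025 at 10 nM, from -0.0693 to 0.00078 for the mean of the doses, from 0.11 to 0.16 against the reference and from 0.09 to 0.16 in control cells. Usp14 in control cells ran from -0.0838 to 0.024 without a control array, the highest being without control replicate 1, Usp49 there was -0.53 without control replicate 2 or its spot alone (which put the median of control cells at 0.0727), and Usp17la at 10 nM ran from -1.26 to 0.0232, the highest being without 10 nM replicate 1. The causes of the other shifts were not tested. Arrays sharing a replicate number deviated together in part: correlations of the 18 pairs ran from -0.11 to 0.28, with a median of 0.12 and 10 over 0.1. Pairs of different numbers ran from -0.34 to 0.20, and 8 of 12 arrays were closest to their own number. Deviations were taken from the group means, so the correlations of like and unlike numbers are not independent. No chance level was computed for them. The running numbers in the array titles follow the replicate number, and what it stands for is not stated. With the number as a replicate block, 0 members passed at any dose, and the 1 µM change of Usp45 stayed at 0.45 (adjusted p = 0.91 in limma).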

Other observations

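The 3 members left out of the tests had few values. Usp13, a relative of Usp5, was at -1.16 on control replicate 3, Usp17lb at -0.02 on control replicate 3 and 0.26 on 100 nM replicate 3, and Usp43 between -1.19 and 0.52 on 4 arrays.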
